A study of Equus caballus with 25 samples.

Results

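The endometrium, the lining of the uterus, of 5 mares was compared between day 16 and day 8 after ovulation. The samples were chosen by their titles: the 5 arrays of day 16 against the 5 arrays of day 8, with the same replicate number standing for the same mare. These were 10 of the 25 arrays of the series, which also holds days 0, 3 and 12. All mares were normally cycling Bavarian Warmbloods, no treatment is named, and their ages are not given in the sources used here. Days were counted from ovulation, on day 0. The labels place day 8 in mid luteal phase, or dioestrus, and day 16 in early oestrus, when the next ovulatory phase begins. Each biopsy was taken through the cervix, and the biopsies of a mare came from different cycles. No hormone concentrations were used here, and the phase of each biopsy rests on the labels.

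After ovulation the corpus luteum secretes progesterone, under which the endometrial glands secrete proteins, lipids and sugars into the uterine lumen. Without an embryo, prostaglandin F2alpha from the endometrium ends the life of the corpus luteum, progesterone falls, and oestrogen from the next growing follicle brings the mare back into oestrus. In oestrus the endometrium swells, and the cervix opens to semen and to the bacteria that come with it.

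Messenger RNA was measured on one-colour arrays of 43603 probes. Every level below is the log2 intensity of a probe minus the 75th percentile of its array, so that 0 is the signal of a probe at that percentile and 1 unit is a 2-fold step. Levels are comparable between arrays for 1 probe but not between probes. The 75th percentile itself lay between 1334 and 1673 intensity units on day 8 and between 875 in mare 1 and 3701 in mare 4 on day 16. Between 75.2% and 83.2% of spots were well above background on day 8, and between 73.2% and 86.2% on day 16. Of the epithelial marker list 1 of 10 genes was measured, ESRP1, a splicing regulator of epithelial cells, whose level ran from 2.73 to 3.04 on day 8 and from 2.66 to 3.35 on day 16. Stromal DCN and the uterine secretory gene P19 were also well above background on all 10 arrays. Only 514 genes with a symbol could be tested, each through its brightest probe.

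The comparison was fitted with limma as day 16 minus day 8 within mares, and a change was called at a Benjamini-Hochberg adjusted p under 0.05. Of 35771 probes tested, 6598 (18.4%) were called, 3443 (9.63%) higher and 3155 (8.82%) lower on day 16. A call with a change of at least 2-fold was made for 3573 probes (9.99%), 1773 (4.96%) of them higher and 1800 (5.03%) lower. Among the 514 named genes 134 (26.1%) were called, 87 (16.9%) higher and 47 (9.14%) lower. Of these 134 genes 112 moved the same way in all 5 mares, as did 86.8% of all called probes. Calls made on the same mares largely fix these counts. The levels of the 5 mares on day 16 lay wholly apart from those on day 8 for 84 (16.3%) of the 514 named genes, 74 of them among the 134 called. Over all probes tested they lay wholly apart for 11.9%, 6.33% with day 16 higher and 5.61% with day 16 lower. The median change was 0.05 over the named genes and -0.05 over all probes. With only 4 mares the number of called probes ranged from 3970 without mare 3 and 4044 without mare 2 to 6927 without mare 1. Leaving out only mare 1 on day 16 gave 8582. In whole biopsies, fewer cells of a type and less RNA per cell cannot be told apart.

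The called genes that the naming rule selected were refitted in up to 28 other settings (26 for CXCL8 and CLEC3A and 27 for CXCL6), among them the leaving out of each mare and each array. Normexp, a correction by the local background, was run as the scanner software left those backgrounds and with the backgrounds it had marked replaced. Both runs started from the median signal of each spot, not from the deposited intensity, and added an offset of 50 before the log. The part of each step in the normexp values below was not tested. Where a gene lost its call, the number of such settings is given with the range of the adjusted p and with the mares or arrays whose removal ended it. The pair of arrays that shared a slide, day 16 of mare 2 and day 8 of mare 4, was also left out together and is called the shared slide below. The count of each gene list stands beside the 26.1% of named genes called and their median of 0.05.

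Genes that process steroids and store lipid were lower on day 16 in part. Of 37 genes on the list of steroid and sterol metabolism 15 were tested, of which 7 fell, 0 rose and 8 did not pass, with a median change of -0.64. The cytochromes CYP3A97 and CYP3A89, of the family that oxidises steroids and drugs, fell in all 5 mares. CYP3A89 had levels of -1.35, -0.74, 0.75, -0.18 and 0.31 in mares 1 to 5 on day 8. On day 16 it had -6.62, -5.11, -4.55, -2.98 and -4.35. All 5 mares were lower on day 16 and the days did not overlap, mare 1 being the lowest on both. The change was -4.48 ± 0.46 (moderated SE, adjusted p = 3.83e-06), a 22.3-fold lower signal, and the other CYP3A89 probe gave -4.19. CYP3A97 changed by -5.57 ± 0.58 (adjusted p = 4.2e-06), from between -4.43 and -2.16 on day 8 to between -9.29 and -7.56 on day 16, where it was well above background in 1 of 5 mares. With normexp it was -2.84, and with marked backgrounds replaced -2.31. CYP3A genes are close paralogues, and hybridization of one to the probe of another was not tested. POR, the reductase that passes electrons to these cytochromes, fell by 1.64 ± 0.32 (adjusted p = 0.00146), from 1.40 to 2.84 on day 8 to 0.29 to 0.86 on day 16.

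PLIN2 coats the lipid droplets in which cells store cholesterol esters and triglycerides. Its levels on day 8 were 5.15, 4.95, 5.40, 5.11 and 4.69, and on day 16 they were 3.13, 2.98, 3.54, 2.75 and 3.25. The days stood apart by more than 1 log2 unit, and the change was -1.93 ± 0.20 (adjusted p = 4.09e-06). HSD3B2, which makes progesterone from pregnenolone, fell by 1.89 ± 0.48 (adjusted p = 0.00961), with all mares on day 16 below all mares on day 8. CYP19A1, the aromatase that makes oestrogens, fell by 1.78 ± 0.48 (adjusted p = 0.014), and here the days overlapped because mare 1 had -0.14 on day 8 and still -0.61 on day 16. HSD11B2, which inactivates cortisol, changed by -1.37 ± 0.42 (adjusted p = 0.0276), with a fall in 3 of 5 mares. The early steps of steroid synthesis did not pass, with STAR at -0.07, CYP11A1 at -0.54 and CYP17A1 at -0.04, and neither did SULT1E1, the oestrogen sulphotransferase, at -0.34. HSD3B2 lost its call in 3 of 28 settings (adjusted p 0.0584 to 0.0750), including without mare 2 or mare 3, and CYP19A1 in 5 (0.0513 to 0.128), including without mare 2, mare 4, the day 16 array of mare 4 or the shared slide. HSD11B2 lost it in 13 (0.0608 to 0.163), including without mare 3, 4 or 5 or any array of these mares, and without the mare in the model, where the adjusted p was 0.0686.

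**Figure D1:**
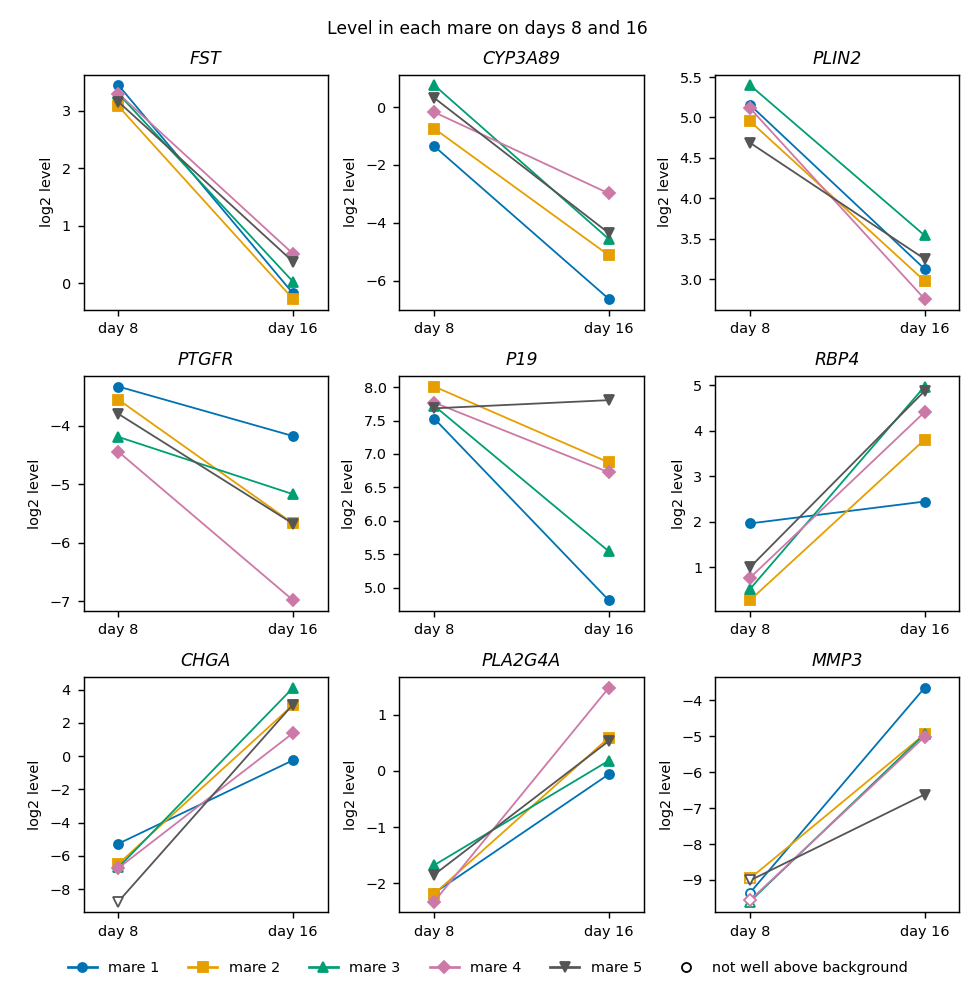
Level (log2 intensity minus the 75th percentile of the array) of 9 genes in each of the 5 mares on day 8 and day 16, with a line joining the 2 days of a mare and open symbols where the probe was not well above background. FST, CYP3A89, PLIN2 and PTGFR fell in all 5 mares, P19 was lower in 4 of 5 and did not pass the test, and RBP4, CHGA, PLA2G4A and MMP3 rose in all 5.

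The secretory proteins of the uterus split between both directions. Of 32 genes on the list 9 were tested, of which 4 rose, 2 fell and 3 did not pass, with a median of -0.32. LGB1, beta-lactoglobulin, a lipocalin best known from milk, had levels of -4.16, -3.98, -3.71, -3.61 and -3.44 on day 8 and of -7.60, -9.12, -9.50, -7.56 and -7.60 on day 16. All mares were far lower on day 16, where the probe was well above background in 1 of 5. The change was -4.49 ± 0.48 (adjusted p = 5.19e-06), but -2.30 with normexp and -1.65 with marked backgrounds replaced. P19, uterocalin, the progesterone-dependent lipocalin of the mare's uterus, had 7.53, 8.01, 7.72, 7.77 and 7.68 on day 8 and 4.81, 6.87, 5.54, 6.73 and 7.80 on day 16. The mares were alike on day 8 and far apart on day 16, with mare 5 as high as before and mare 1 lowest. Its change of -1.39 ± 0.48 did not pass (adjusted p = 0.0512). Without mare 5 it was -1.77 (adjusted p = 0.0293), without its day 16 array -1.66 (0.0287) and without its day 8 array -1.59 (0.0451). It did not pass without mare 1 (-1.06, adjusted p = 0.113) or mare 3 (-1.19, 0.212). Nor did it pass with quantile normalization (-0.97, adjusted p = 0.232) or normexp (-0.96, 0.206).

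RBP4, the carrier of retinol, rose. Its levels were 1.97, 0.28, 0.53, 0.77 and 1.0 on day 8 and 2.45, 3.81, 4.97, 4.41 and 4.87 on day 16. Mare 1 was the highest on day 8 and the lowest on day 16, and the days still did not overlap. The change was 3.19 ± 0.48 (adjusted p = 0.000148), its 3 other probes gave 3.27 to 3.31, and without mare 1 it was 3.87. GM2A, a lipid transfer protein of the lysosome, rose by 1.61 ± 0.27 (adjusted p = 0.000344), and B2M, the light chain of MHC class I, by 1.06 ± 0.18 (adjusted p = 0.000386). CLU, a secreted chaperone, rose by 0.76 ± 0.22 (adjusted p = 0.0211) from a range of 4.83 to 5.30 to one of 5.57 to 6.12. KLK1, tissue kallikrein, fell by 0.95 ± 0.30 (adjusted p = 0.032) with overlapping days. CLU lost its call in 6 of 28 settings (adjusted p 0.0510 to 0.0898), including without mare 1, 3 or 5 or the day 16 array of mare 4. KLK1 lost it in 15 (0.0574 to 0.147), including without mare 2, 3 or 4, the day 8 array of any of these, the day 16 array of mare 3 or 4 or the shared slide, and without the mare in the model (0.0708).

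Follistatin and the activin and inhibin subunits fell. Of 26 genes on the list of activin, inhibin and TGF-beta ligands and binders 4 were tested, of which 3 fell and 0 rose, with a median of -1.56. FST, follistatin, which binds activin and blocks it, had 3.44, 3.08, 3.29, 3.30 and 3.16 on day 8 and -0.18, -0.27, 0.03, 0.51 and 0.38 on day 16. The mares lay within a narrow band on each day and the bands were far apart. The change was -3.16 ± 0.19 (adjusted p = 9.35e-09), an 8.94-fold lower signal. INHBA, the subunit of activin A, had 3.70, 3.89, 4.32, 3.97 and 3.77 on day 8 and 3.03, 1.71, 1.48, 2.50 and 2.56 on day 16. It fell by 1.67 ± 0.50 (adjusted p = 0.0236) without overlap, least in mare 1, and its 3 other probes were called the same way. INHA, the alpha subunit of inhibin, fell by 1.45 ± 0.27 in all 5 mares (adjusted p = 0.000803), and TGFB1 had a change of -0.02 that did not pass. INHBA lost its call in 11 of 28 settings (adjusted p 0.0501 to 0.145), including without mare 2, 3 or 5, the day 8 array of mare 1 or 2, the day 16 array of mare 3 or 4, or the shared slide. INHA lost it in 2 (0.0570 to 0.0822), both of them changes of block or background correction.

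In the prostaglandin pathway 2 phospholipases rose and 2 receptors fell. Of 27 genes on the prostaglandin and oxytocin list 9 were tested, of which 2 rose, 3 fell and 4 did not pass, with a median of -0.24. PLA2G4A, the cytosolic phospholipase that frees arachidonic acid, had -2.17, -2.19, -1.67, -2.32 and -1.84 on day 8 and -0.06, 0.59, 0.18, 1.48 and 0.53 on day 16. Mare 4 was lowest on day 8 and highest on day 16, and no values overlapped. The rise was 2.58 ± 0.29 (adjusted p = 7.96e-06), or 5.99-fold. PLA2G2A, a secreted phospholipase, had 2.89, 2.78, 4.58, 2.99 and 4.58 on day 8 and 4.51, 5.70, 4.89, 5.45 and 4.95 on day 16. It rose by 1.54 ± 0.42 (adjusted p = 0.016), little in mares 3 and 5, which were high already, and the days overlapped.

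Among the receptors, PTGFR, which binds prostaglandin F2alpha, had -3.33, -3.56, -4.19, -4.45 and -3.80 on day 8 and -4.18, -5.67, -5.17, -6.98 and -5.67 on day 16. All 5 mares fell, and the days overlapped only in that mare 1 on day 16 was as high as the lowest mares of day 8. The change was -1.67 ± 0.37 (adjusted p = 0.00381). PTGER2, a receptor of prostaglandin E2, changed by -1.40 ± 0.37 (adjusted p = 0.0117), with 5 of 5 other probes called the same way, but mare 4 went from 2.70 to 3.11 while the other 4 mares fell. PTGDS, which makes prostaglandin D2, fell by 0.69 ± 0.18 (adjusted p = 0.0127).

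The enzymes between them did not pass. PTGS2, the inducible cyclooxygenase, had 1.03, 1.10, 0.50, 0.24 and 0.45 on day 8 and 1.35, 0.12, 0.42, 2.88 and 1.12 on day 16. The change was 0.51 ± 0.47 (adjusted p = 0.463), with mare 4 rising most, and without mare 4 it was -0.02. Its 2 other probes gave 1.58 and 3.55, of which 1 was called, so that the probes of PTGS2 disagree. PTGES, a prostaglandin E synthase, had 0.24, 0.91, 1.13, 2.87 and 2.56 on day 16 against 1.58 to 2.04 on day 8. It was lower in mares 1 to 3 and higher in mares 4 and 5, and the change of -0.24 ± 0.37 did not pass (adjusted p = 0.677). HPGD, which inactivates prostaglandins, was at -0.37 and did not pass. PLA2G2A lost its call in 7 of 28 settings (adjusted p 0.0568 to 0.126), including without mare 2 or 4, the day 8 array of mare 2, the day 16 array of mare 4 or the shared slide. PTGER2 lost it in 6 (0.0577 to 0.133) and PTGDS in 5 (0.0548 to 0.0826), both including the fits without mare 2, without mare 3 and without the shared slide.

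**Figure D2:**
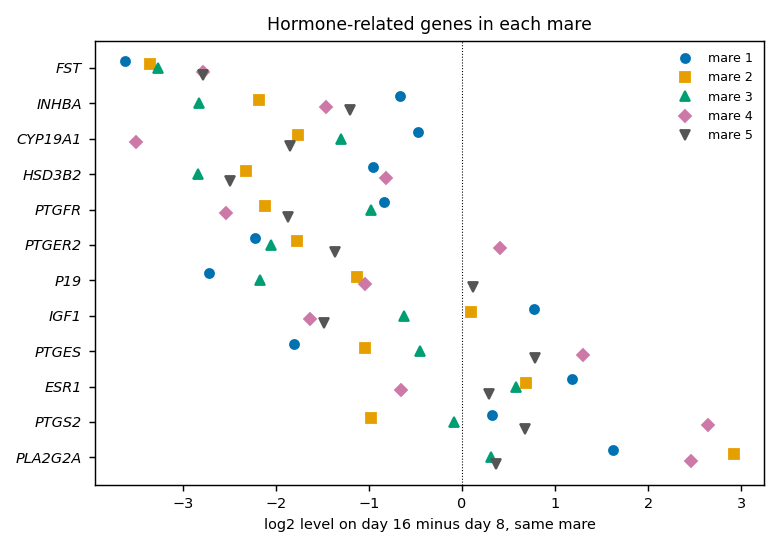
Change of 12 hormone-related genes in each mare, as the log2 level on day 16 minus that on day 8, with 1 symbol per mare and a dotted line at 0. FST, INHBA, CYP19A1, HSD3B2 and PTGFR were below 0 in all 5 mares and PLA2G2A above 0 in all 5, while PTGES, PTGS2, ESR1, IGF1, P19 and PTGER2 had mares on both sides.

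Of 26 genes on the list of steroid, thyroid and retinoid receptors and related proteins 6 were tested, of which 3 rose and 1 fell, with a median of 0.61. ESR1, the oestrogen receptor alpha, had 6.12, 5.81, 5.89, 6.18 and 6.24 on day 8 and 7.30, 6.50, 6.47, 5.53 and 6.54 on day 16. It was higher in 4 mares and lower in mare 4, and the change of 0.42 ± 0.26 did not pass (adjusted p = 0.283); without mare 4 it was 0.68 (adjusted p = 0.107). PGRMC1, a haem-binding membrane protein, fell from 5.80 to 6.55 on day 8 to 4.48 to 5.10 on day 16, a change of -1.26 ± 0.20 (adjusted p = 0.000245). NR5A2, an orphan receptor that drives steroid and bile acid genes, rose by 1.69 ± 0.24 (adjusted p = 7.52e-05). PPARGC1A, the coactivator of mitochondrial genes, rose by 2.28 ± 0.39 (adjusted p = 0.000476), least in mare 1 and most in mare 4. With normexp PGRMC1 (adjusted p = 0.156) and PPARGC1A (0.0607) lost their calls, and so did NR5A2, whose change was then -0.029 (0.970). RARB, a retinoic acid receptor, rose by 0.79 ± 0.23 (adjusted p = 0.0216) without overlap. RARB lost its call in 8 of 28 settings (adjusted p 0.0568 to 0.740), including without mare 2, 3 or 5, the day 8 array of mare 4, the day 16 array of mare 3 or the shared slide.

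CHGA, chromogranin A, a protein of the secretory granules of neuroendocrine cells, had the largest change of any named gene. Its levels were -5.27, -6.49, -6.69, -6.73 and -8.75 on day 8, where it was well above background in 4 of 5 mares, and -0.25, 3.07, 4.10, 1.38 and 3.1 on day 16. Every mare rose by more than 5 log2 units, least in mare 1. The change was 9.06 ± 0.86 (adjusted p = 1.7e-06), a 535-fold higher signal, and its 4 other probes gave 9.09 to 9.38. Without mare 1 it was 10.08, with normexp 5.87 and with marked backgrounds replaced 6.70. On day 0 its mean level was -4.70 and on day 12 it was -1.52. CHGA was the only tested gene of the 18 on the list of neuroendocrine and granule genes.

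Chemokine genes rose in 6 of 9 tested. Of 27 genes on the list, 0 fell and 3 did not pass, and the median change was 1.19. CXCL6, a neutrophil attractant, had -7.02, -6.99, -6.36, -9.69 and -9.03 on day 8 and -3.37, -4.87, -3.80, -1.59 and -8.70 on day 16. Mare 5 hardly changed and mare 4 rose most, and the probe was well above background in 2 mares on day 8 and in 4 on day 16. The change was 3.35 ± 0.82 (adjusted p = 0.00745), while without mare 4 it was 2.17, with normexp 0.41 and with marked backgrounds replaced 1.27. CXCL8, which also attracts neutrophils, changed by 2.36 ± 0.67 (adjusted p = 0.018), but it was well above background in only 1 mare on day 8 and 3 on day 16, and mare 5 went down. Without mare 4 its change was 1.31 (adjusted p = 0.0835), with only its day 16 array left out 1.46, with normexp -0.48 and with marked backgrounds replaced 0.38.

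CXCL10, an interferon-induced attractant of T cells, rose in all 5 mares by 1.67 ± 0.31 (adjusted p = 0.00101), and 4 of 4 other probes were called the same way. The monocyte attractant CCL2 changed by 1.64 ± 0.39 (adjusted p = 0.00608), with a rise in 4 of 5 mares. It was 1.01 without mare 4 and 0.60 with normexp. CCL8 rose by 1.19 ± 0.31 (adjusted p = 0.0114) and CCL5, a product of T and NK cells, by 0.89 ± 0.22 (adjusted p = 0.0066). Without mare 4 the change of CCL8 was 0.65 (adjusted p = 0.0683). The other members tested, CCL11 at -0.61, CXCL9 at -0.20 and CCL3 at 0.09, did not pass. CXCL8 lost its call in 10 of 26 settings (adjusted p 0.0523 to 0.563), including without mare 1, 2 or 4, the day 8 array of mare 4 or the shared slide. CCL8 lost it in 5 of 28 (0.0560 to 0.148), including without mare 4 or 5. CXCL6 lost it in 3 of 27 (0.0629 to 0.648), CCL2 in 3 of 28 (0.0821 to 0.345) and CCL5 in 2 of 28 (0.0775 to 0.151). With normexp all 6 chemokine calls were lost, CXCL10 at an adjusted p of 0.236, and with only days 8 and 16 in the fit CXCL10 alone of the 6 kept its call.

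Of the 39 genes of innate defence and acute phase 15 were tested, of which 4 rose and 1 fell, with a median of 0.50. Besides CXCL6 and CXCL8, CD14, the co-receptor for bacterial lipopolysaccharide, rose from between -0.34 and 0.13 to between 0.42 and 2.32, by 1.18 ± 0.29 (adjusted p = 0.00819). IL1R1, the receptor of interleukin 1, changed by 1.30 ± 0.39 (adjusted p = 0.0242), with a rise in mares 1 to 4. TNF, a cytokine of inflammation, changed by -1.16 ± 0.39 (adjusted p = 0.0411), with a fall in mares 2 to 5. The beta-defensin DEFB4B had -6.53, -3.54, -2.46, -5.66 and -5.50 on day 8 and -5.50, -2.13, -1.59, 2.88 and -0.50 on day 16. It was higher in all 5 mares, but by 0.88 to 1.41 in mares 1 to 3 and by 8.54 and 5.01 in mares 4 and 5, and its 3.37 ± 1.18 did not pass (adjusted p = 0.0528). IL1RN, the interleukin 1 receptor antagonist, showed the same mares high, with 6.08 in mare 4 and 2.29 in mare 5 against -2.10 to -1.92 in the others on day 16 (change 2.91 ± 1.01, adjusted p = 0.0519). The serum amyloid gene SAA was at 2.82 and 1.68 in mares 4 and 5 and between -4.47 and -4.35 in mares 1 to 3 on day 16. These are levels of 1 day and not changes. The mean of SAA was lower on day 16 than on day 8, and its change of -1.25 did not pass (adjusted p = 0.506).

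Markers of immune cells are given beside these genes. The neutrophil list had 1 of 10 genes tested, IL1R2, at -8.19 to -5.69 on day 8 and -6.16 to -2.95 on day 16, highest in mare 4 (change 1.43, adjusted p = 0.0822). Of 9 macrophage and dendritic cell markers 3 were tested, with CD14 called and CD68 at -0.10 and ITGAX at 0.02. Their summed level ran from -0.12 to 0.36 on day 8 and from 0.66 to 2.37 on day 16. A summed level follows its brightest probe, and this one lay close to the level of CD14 alone. Of 14 T and NK cell markers 4 were tested, with summed levels of 1.67 to 3.49 and of 2.94 to 4.36. GNLY, granulysin, rose by 1.52 (adjusted p = 0.000279) and CCL5 rose, while CD2 at 0.09 and GZMB at 0.52 did not pass. Of the tested markers 0 were at background on both days, which the filter on dim probes largely fixes. The untested markers were not examined, and 0 genes of the B cell and pan-leukocyte lists were tested. The part of these cell types in the chemokine result was not tested. CD14 lost its call in 3 of 28 settings (adjusted p 0.0503 to 0.0720), including without mare 5. IL1R1 lost it in 14 (0.0511 to 0.777), including without mare 2, 3 or 4, the day 8 array of mare 1, 3 or 4, the day 16 array of mare 3 or 4 or the shared slide. TNF lost it in 20 (0.0511 to 0.180), including without any mare but mare 1, any day 8 array but that of mare 4, any day 16 array but that of mare 1 or the shared slide, and without the mare in the model (0.100).

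Of 48 interferon response and MHC genes 14 were tested, of which 5 rose, 0 fell and 9 did not pass, with a median of 0.68. B2M had 4.82, 4.97, 5.13, 4.21 and 4.62 on day 8 and 5.79, 5.90, 5.68, 6.08 and 5.59 on day 16, without overlap. OAS2, an antiviral enzyme that senses double-stranded RNA, had -0.83, 0.21, 0.46, -1.01 and -0.62 on day 8 and 0.88, 0.96, 1.15, 1.95 and 0.62 on day 16. It rose by 1.47 ± 0.33 (adjusted p = 0.00427) without overlap, and 5 of 5 other probes were called the same way. The related OAS1, OAS3 and OASL did not pass, nor did EIF2AK2 and IFI27. MX1, another antiviral effector, rose by 1.08 ± 0.31 (adjusted p = 0.0183) in all 5 mares with overlapping days. IFNG itself was at 0.82 (adjusted p = 0.31) CD74, of MHC class II, at -0.05 (adjusted p = 0.929) and EQMHCC1, of MHC class I, at 0.79 (adjusted p = 0.61). MX1 lost its call in 8 of 28 settings (adjusted p 0.0501 to 0.110), including without mare 1 or 4, the day 8 array of mare 1, 4 or 5 or the day 16 array of mare 4.

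**Figure D3:**
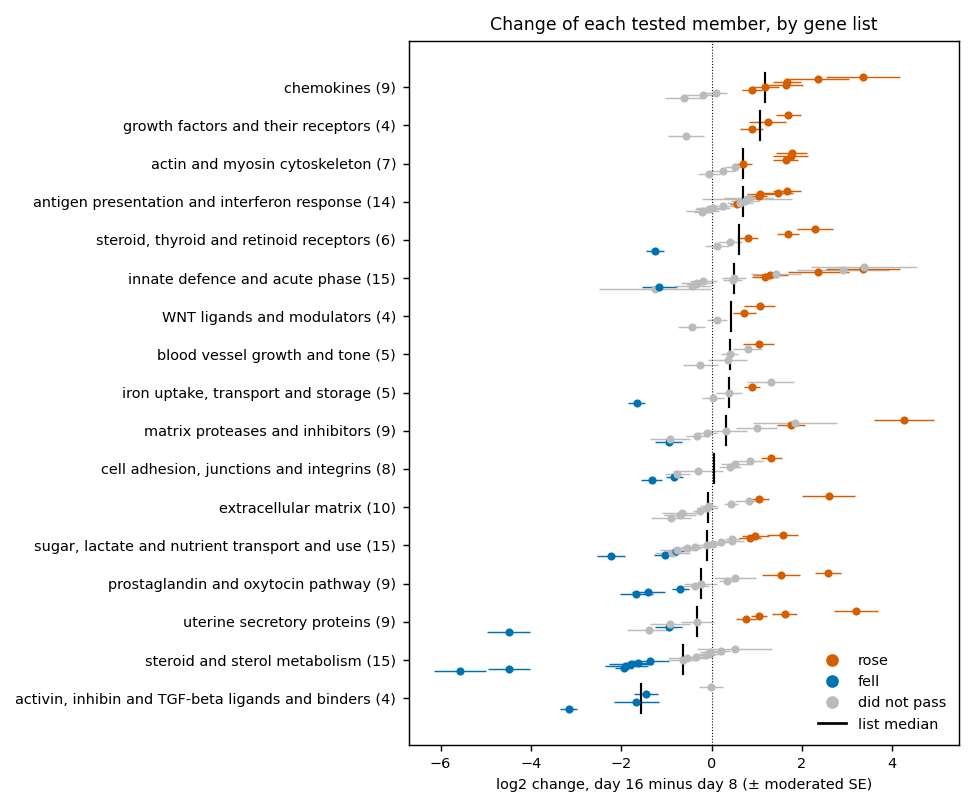
Change of each tested gene (log2, day 16 minus day 8, bars of ± 1 moderated standard error) by gene list, with the number tested in brackets, coloured by call and with a black line at the median of the list, for the lists with more than 1 tested gene. The chemokines have a median of 1.19 with 6 genes called higher, and steroid and sterol metabolism has a median of -0.64 with 7 genes called lower.

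In the list of matrix proteases and inhibitors, MMP3 and TIMP1 were called higher, and most tested members did not pass. MMP3, stromelysin, which degrades matrix proteins, was well above background in 0 of 5 mares on day 8 and in all 5 on day 16, with levels of -3.66, -4.95, -4.95, -5.02 and -6.62. Its fitted change was 4.26 ± 0.67 (adjusted p = 0.000224), and against the lowest signal measurable on the day 8 arrays it was 4.41-fold higher. It lost its call with normexp, where the change was -0.21 (adjusted p = 0.829), and with marked backgrounds replaced, where it was 0.69 (0.200). TIMP1, the inhibitor of such proteases, rose by 1.76 ± 0.31 (adjusted p = 0.000602), from 0.42 to 0.89 on day 8 to 1.01 to 3.62 on day 16.

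Of 36 matrix proteases and inhibitors 9 were tested, of which 2 rose and 1, KLK1, fell, with a median of 0.32. MMP9 at 1.0 and MMP13 at 1.84 did not pass (adjusted p = 0.132 and 0.171). The serine protease inhibitor SPI2 had -6.30, -5.46, -1.13, -6.40 and -3.86 on day 8 and -1.18, 0.39, 0.56, 0.14 and -1.36 on day 16. It rose in all 5 mares by 4.34 ± 0.88 (adjusted p = 0.00191), with mare 3 high already on day 8, and lost its call with normexp (adjusted p = 0.0629). CD44, a receptor of hyaluronan, rose by 1.32 ± 0.23 (adjusted p = 0.000501) without overlap. TNFAIP6, which binds hyaluronan and is induced in inflammation, rose by 1.87 ± 0.49 (adjusted p = 0.0113), from between -8.25 and -6.38 on day 8 to -2.55 in mare 4 and -6.16 to -4.82 in the others. TNFAIP6 lost its call in 6 of 28 settings (adjusted p 0.0574 to 0.657), including without mare 4 or 5 and without the mare in the model (0.0574), and with normexp it was -0.37.

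Of 42 extracellular matrix genes 10 were tested, of which 2 rose and 0 fell, with a median of -0.08. DCN, decorin, a proteoglycan on collagen fibres and a stromal marker, had 3.71, 3.54, 3.39, 3.56 and 3.31 on day 8 and 4.83, 4.52, 4.36, 4.97 and 4.04 on day 16. It rose without overlap by 1.04 ± 0.23 (adjusted p = 0.00321). CLEC3A, a lectin known from cartilage, was well above background in 0 mares on day 8 and 3 on day 16 (fitted change 2.59 ± 0.59, adjusted p = 0.00435). Against the lowest signal measurable on the day 8 arrays, it was 1.76-fold higher as a mean of all 5 mares on day 16. It lost its call with normexp, at -0.78 (adjusted p = 0.318), and with marked backgrounds replaced, at 0.13 (0.731). LUM, lumican, was at 0.82 with its brightest probe (adjusted p = 0.0667), while 5 of 5 other LUM probes were called higher. The summed level of the stromal markers DCN and LUM ran from 3.56 to 4.01 on day 8 and from 4.18 to 5.20 on day 16. It lay close to that of DCN alone, which ran from 3.31 to 3.71 and from 4.04 to 4.97. The part of stromal cell content in the matrix result was not tested.

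In the cytoskeleton list, 7 of 39 genes were tested, of which 4 rose and 0 fell, with a median of 0.69. TAGLN, a marker of smooth muscle, had -2.64, -2.01, -2.47, -2.92 and -1.42 on day 8 and -1.13, -0.34, 0.25, -0.53 and -0.87 on day 16, and rose by 1.77 ± 0.34 (adjusted p = 0.00127) without overlap. TAGLN lost its call with normexp (adjusted p = 0.0723). It was the only tested gene of 7 smooth muscle markers, and the part of muscle cells in the result was not tested. MYH7, a slow myosin heavy chain, rose from between -1.0 and -0.67 to between 0.25 and 1.48, by 1.75 ± 0.39 (adjusted p = 0.00412). RND3, a small GTPase that loosens actin fibres, rose by 1.64 ± 0.28 (adjusted p = 0.000373) and TMSB10, which binds actin monomers, by 0.69 ± 0.21 (adjusted p = 0.0247). ACTB was at -0.06. TMSB10 lost its call in 12 of 28 settings (adjusted p 0.0561 to 0.138), including without mare 1, 2 or 3, the day 8 array of mare 4, the day 16 array of mare 1 or 3 or the shared slide, and without the mare in the model (0.0891).

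Growth factor genes were called in 3 of 4 tested, all higher, with a median of 1.06 over the 4 tested of 30 listed. MET, the receptor of hepatocyte growth factor, had 2.96, 2.78, 2.75, 2.73 and 3.18 on day 8 and 3.34, 4.78, 4.73, 5.02 and 5.02 on day 16. Mare 1 rose by 0.38 and the other 4 by 1.84 to 2.29, for a change of 1.70 ± 0.28 (adjusted p = 0.000299). IGF2 changed by 0.89 ± 0.26 (adjusted p = 0.0209) with a rise in 4 of 5 mares, and IGF1 had -0.57 ± 0.40, which did not pass (adjusted p = 0.328). IGF1 was -0.91 without mare 1 and -0.31 without mare 4. BDNF, a neurotrophin, changed by 1.24 ± 0.41 (adjusted p = 0.0395) with 0 of 4 other probes called, and it was well above background in 2 mares on day 8.

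Of 22 WNT genes 4 were tested, of which RSPO3, an amplifier of WNT signals, changed by 1.07 ± 0.34 (adjusted p = 0.0346) and CTNNB1, beta-catenin, by 0.73 ± 0.25 (adjusted p = 0.0481), each higher in 4 of 5 mares, with a list median of 0.42. Of 26 vessel genes 5 were tested, with a median of 0.40, and EDNRA, an endothelin receptor, was called at 1.04 ± 0.33 (adjusted p = 0.0354), higher in 4 of 5 mares. VEGFA at 0.79 (adjusted p = 0.0947) and the endothelial marker PECAM1 at 0.40 (adjusted p = 0.142) did not pass. Each of the calls of IGF2, BDNF, RSPO3, CTNNB1 and EDNRA was lost in 11 or more settings. IGF2 lost its call in 11 of 28 settings (adjusted p 0.0599 to 0.625), including without any mare but mare 4, the day 8 or day 16 array of mare 5, the day 8 array of mare 1 or the day 16 array of mare 2. BDNF lost it in 20 (0.0504 to 0.970), including without any mare but mare 3, without the shared slide and without any array but the 2 of mare 3 and that of mare 1 on day 16, and was 0.81 without mare 5. RSPO3 lost it in 13 (0.0547 to 0.236), including without any mare but mare 4 and without any array of days 8 and 16 of mares 3 and 5, the day 8 array of mare 1 or the day 16 array of mare 2. CTNNB1 lost it in 18 (0.0598 to 0.346), including without any mare but mare 1, any day 8 array but that of mare 5, the day 16 array of mare 2, 3 or 4 or the shared slide, where it was 0.43. EDNRA lost it in 15 (0.0581 to 0.578), including without any mare but mare 4, the day 8 array of mare 1, 3 or 4, the day 16 array of mare 1, 2 or 3 or the shared slide. Without the mare in the model IGF2 (0.139), BDNF (0.0523) and CTNNB1 (0.0611) lost it as well. With normexp BDNF was -0.86 and EDNRA -0.59, and with marked backgrounds replaced they were 0.012 and 0.19.

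Sugar and ion handling changed gene by gene. Of 38 genes on the list 15 were tested, of which 3 rose, 3 fell and 9 did not pass, with a median of -0.11. HK2, a hexokinase that traps glucose in the cell, had -2.13, -1.46, -1.50, -1.80 and -1.24 on day 8 and -3.94, -3.78, -3.57, -3.62 and -4.37 on day 16. It fell by 2.23 ± 0.30 (adjusted p = 5.16e-05), and the days were more than 1 log2 unit apart. Of the lactate genes, SLC16A1, a lactate transporter, fell by 1.03 ± 0.26 (adjusted p = 0.00832) and LDHB by 0.78 ± 0.18 (adjusted p = 0.00443), while LDHA, the other lactate dehydrogenase subunit, rose by 0.85 ± 0.24 (adjusted p = 0.0188). SLC5A1, a sodium-coupled glucose transporter, rose by 0.97 ± 0.30 (adjusted p = 0.0275) with overlapping days. CFTR, a chloride channel of epithelia, rose from -0.03, 0.06, 0.90, 0.42 and 1.03 to 1.25, 1.53, 2.14, 3.38 and 1.96, by 1.58 ± 0.34 (adjusted p = 0.00307).

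CFTR lost its call in 1 of 28 settings, with slide and mare both in the model (adjusted p = 0.0554). LDHB lost it in 2 (0.0530 to 0.581), after no removal. LDHA lost it in 11 (0.0516 to 0.165), including without mare 2, 3 or 4, the day 8 array of mare 1 or 4, the day 16 array of mare 4 or the shared slide, and was 0.51 without mare 4. SLC16A1 lost it in 6 (0.0551 to 0.347), including without mare 2 or 5 or the shared slide. SLC5A1 lost it in 14 (0.0526 to 0.265), including without mare 2, 4 or 5, the day 8 array of mare 1, 2 or 4, the day 16 array of mare 2 or 3 or the shared slide, where it was 0.58, and without the mare in the model (0.139).

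CTTNBP2, a partner of the actin regulator cortactin, and CFTR lie next to each other in RefSeq order with MET a few genes away, and they moved in opposite directions. CTTNBP2 had 3.19, 2.82, 2.92, 3.25 and 2.57 on day 8 and 0.56, 0.94, 0.96, 0.57 and 1.65 on day 16, a change of -2.01 ± 0.21 (adjusted p = 4.97e-06) beside 1.58 for CFTR and 1.70 for MET.

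In the list of 18 iron genes 5 were tested, with a median of 0.38. SLC11A1, which pumps iron and manganese out of phagosomes, had 0.41, 0.14, 0.45, 0.51 and 0.12 on day 8 and -1.35, -1.33, -1.54, -1.39 and -1.04 on day 16. The mares were tightly grouped on each day, and the change was -1.66 ± 0.19 (adjusted p = 8.16e-06). FTL, the ferritin light chain that stores iron, rose by 0.88 ± 0.18 (adjusted p = 0.00167), from 2.87 to 3.36 on day 8 to 3.79 to 4.31 on day 16. TFRC, the transferrin receptor, was at 1.31 and did not pass (adjusted p = 0.0854).

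Of 36 adhesion genes 8 were tested, of which CD44 rose and 2 fell, with a median of 0.05. ITGA2B, the platelet integrin subunit, fell by 1.33 ± 0.23 (adjusted p = 0.00047) and VCAM1, which holds leukocytes to endothelium, by 0.82 ± 0.18 (adjusted p = 0.00334), both without overlap. VCAM1 lost its call in 2 of 28 settings (adjusted p 0.0529 to 0.0916), after no removal. Outside the lists, S100G, the calcium carrier calbindin D9k, fell by 1.74 ± 0.46 (adjusted p = 0.0123), 4 of 4 other probes were called the same way, and NKAIN2, a partner of the sodium pump, fell by 1.60 ± 0.26 (adjusted p = 0.000261). S100G lost its call in 4 of 28 settings (adjusted p 0.0584 to 0.0783), without mare 2, 3 or 4 or the shared slide.

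Other rises outside the lists were those of MAOB, which oxidises amines, by 1.98 ± 0.43 (adjusted p = 0.00294), and of the kinase PIM1 by 1.85 ± 0.34 (adjusted p = 0.000878). MAOB lost its call with normexp (adjusted p = 0.0782). BSP2 rose by 2.39 ± 0.67 (adjusted p = 0.017). FOS, an immediate early transcription factor and the only tested gene of 29 on the cell cycle list, had -1.25, -1.99, -1.50, -3.15 and -2.08 on day 8 and -0.80, -0.24, -0.08, 4.95 and 1.14 on day 16. All mares rose, but mare 4 by 8.10 log2 units and mare 1 by 0.45. The change was 2.99 ± 0.81 (adjusted p = 0.014), and without mare 4 it was 1.71 (adjusted p = 0.0965). FOS lost its call in 6 of 28 settings (adjusted p 0.0589 to 0.115), including without mare 4, its day 8 array or the shared slide, and BSP2 in 5 (0.0536 to 0.632), including without mare 4 or the day 8 array of mare 2, and without the mare in the model (0.0766).

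The means on days 0, 3 and 12 place both days in the cycle. Of the 87 named genes that rose, 47 had their highest mean on day 16 and 30 on day 0, and 49 had their lowest mean on day 8. Of the 47 that fell, 30 were highest on day 8, 26 lowest on day 16 and 17 lowest on day 0. Over all called probes, day 16 was the highest day for 57.8%, day 0 the highest for 26.2% and day 8 the lowest for 67.4% of the 3443 that rose. Of the 3155 that fell, 70.2% were highest on day 8, 48.1% lowest on day 16 and 40.5% lowest on day 0. Choosing genes called between days 8 and 16 largely fixes these counts. RND3 had a mean of 1.82 on day 0 and 1.27 on day 16, and MMP3 had -3.47 and -5.04. RBP4 had 1.69 on day 0, 3.83 on day 12 and 4.10 on day 16. FST had 0.63 on day 0, 2.17 on day 3 and 2.78 on day 12, so that day 16, at 0.09, was its lowest day. CYP3A89 had -6.30 on day 0 and -4.72 on day 16. No test was made of these levels, since comparisons that share the arrays of day 8 or day 16 are not independent.

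**Figure D4:**
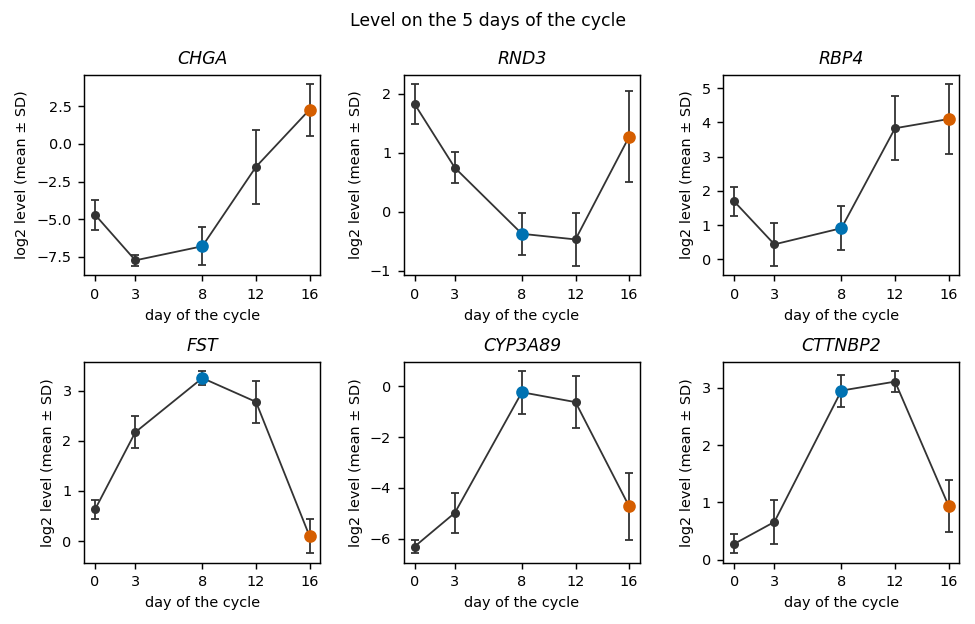
Mean level ± SD over 5 mares (log2 intensity minus the 75th percentile) on days 0, 3, 8, 12 and 16, with day 8 in blue and day 16 in orange. RND3 was high on days 0 and 16, CHGA and RBP4 were highest on day 16, and FST, CYP3A89 and CTTNBP2 were high on days 8 and 12.

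The mares differed more from each other on day 16 than on day 8. Over all probes the SD between mares had a median of 0.29 on day 8 and 0.51 on day 16, and it was larger on day 16 for 80.9% of probes. Among the 134 called named genes, mare 4 had the largest change of the 5 mares in 68, mare 1 the smallest in 45 and mare 5 the smallest in 36, and mare 1 moved against the pooled direction in 10. Probes called without a mare were then looked up in that mare. In mare 2 96.9% of 4039 such probes moved the same way, in mare 3 95.3% of 3964, in mare 4 88.4% of 4942, in mare 5 88.1% of 4793 and in mare 1 80.6% of 6925. In mare 1 the median change was 0.63 for the higher and -0.54 for the lower probes, against 1.12 and -1.26 in the fit of the other 4 mares. In mare 5 it was 0.68 and -0.98 against 1.27 and -1.30. On day 16 mare 1 also had the lowest 75th percentile of signal and mare 4 the highest. With that percentile as a term of the model 5164 probes were called.

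Slide and mare partly coincided. Both days of mares 1, 3 and 5 lay on 1 slide each, so the shares above for these mares are also the values within a slide. The shared slide compared day 16 of mare 2 with day 8 of mare 4, and 97.1% of 3577 probes called without it moved the same way there. With slide in place of the mare 5597 probes were called, with slide beside the mare 3197, and with no mare in the model 5379.

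**Figure D5:**
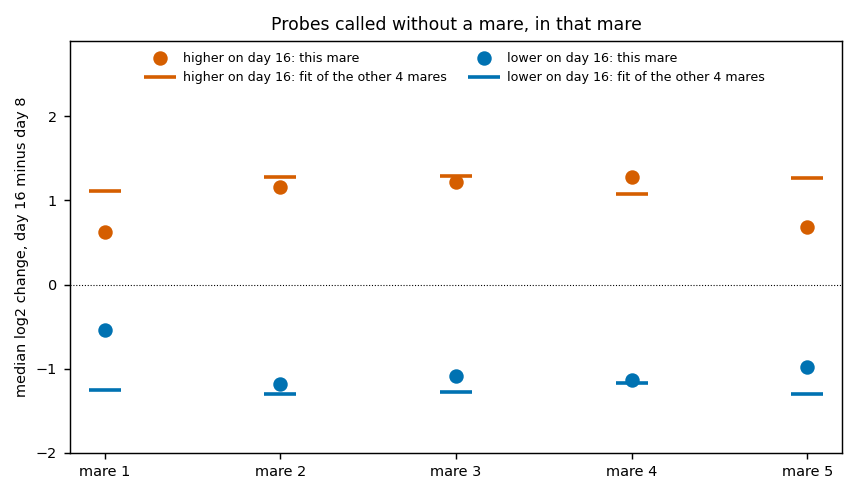
Median log2 change (day 16 minus day 8) in each mare of the probes called without that mare, as points, with the median of the fit of the other 4 mares as bars, for probes higher (orange) and lower (blue) on day 16. Mare 1 had 0.63 and -0.54 against 1.12 and -1.26 in the others and mare 5 had 0.68 and -0.98 against 1.27 and -1.30, while mares 2 to 4 lay closer to the others.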

How the data were processed

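Per the labels' protocols, total RNA of the biopsies was isolated with Trizol and labelled as Cy3 cRNA. The deposited values are intensities, from which Agilent Feature Extraction 10.7.3.1 (submitters' processing notes) subtracted the background within each array, per the file headers. No scaling between arrays is recorded, and the deposited value table equalled the scanner output on all 25 arrays. No spot was saturated.

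From these intensities log2 levels were computed, minus the 75th percentile of each array, which cannot show a change in total RNA. Outlier spots were left out and repeated spots of a probe averaged. Tests covered the probes that rose well above background in 4 or more of the 5 mares on some day. limma 3.58.1 in R 4.3.3 fitted all 25 arrays with day and mare as terms and 1 shared spread, with moderated two-sided tests, Benjamini-Hochberg adjustment over 35771 probes and a threshold of 0.05. The shared spread pools days that differed, with a median SD between mares of 0.29 on day 8 and 0.51 on day 16. The standard errors and adjusted p therefore rest on a spread that is not that of either day alone. The script was tested on simulated data. The 5 mares per day limit the precision of every value.

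Symbols came from RefSeq (assembly TB-T2T) by accession, which gave 1307 probes for 620 genes. Left unmatched were 32565 probes with an Ensembl transcript, 6468 with a GenBank accession, 1724 with a probe identifier only and 1539 of 2846 with a RefSeq accession. The genes named were up to 15 largest rises and 15 largest falls among genes called, moved the same way in all 5 mares and well above background in 4 or more mares on either day, then every called member of 19 gene lists, and 14 hormone response genes where tested, which left out the progesterone and oxytocin receptors. Other genes were named after their values were seen. A few genes that this rule selects are not reported here. Members and lists were chosen with earlier results of these data known. For a gene above background in 0 mares of a day, a fold was taken against the dimmest probe well above background on each such array. Where the gene's own level there was higher, that level was used. The fold sets the mean of all 5 mares on the other day against this, and is no lower bound under other background corrections.

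The labels name the mare of each array, which pairs the days. Deviations from the day means correlated between the days of a mare at 0.42, 0.25 and 0.42 for mares 1, 3 and 5, whose arrays shared a slide, and at -0.07 and -0.01 for mares 2 and 4, whose arrays did not. Day 16 of mare 2 and day 8 of mare 4, on 1 slide, correlated at 0.35. Pairs that shared neither mare nor slide ran from -0.44, for day 8 of mare 5 with day 16 of mare 1, to 0.43. The latter was day 8 of mare 2 with day 16 of mare 1. Alternatives changed the pairing, arrays, slide block, signal covariate, normalization, background correction, filter, moderation and probes, or left out each mare or array. A filter on days 8 and 16 alone and the removal of the shared slide were added after seeing the data. Python 3.11.15, pandas 2.3.3, numpy 2.4.6 and matplotlib 3.10.9 were used.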

Additional observations from a re-analysis of the deposited data

Results flagged for a closer look

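Of 156 groups of 5 mares, 1 gene on 1 day each, 6 had a mare far from the others, measured as its gap to the nearest mare over the whole range. Chance alone gives about 1 in 20. On day 16, MET was lowest in mare 1 at 3.34, with the nearest mare at 4.73. LDHB was lowest in mare 5 at 2.33, with the nearest at 3.05, and LDHA was highest in mare 4 at 1.32, with the nearest at 0.16. On day 8, mare 4 was lowest for IL1R1 at -4.85, with the nearest at -4.31, and for RARB at -2.92, with the nearest at -2.64. GM2A was highest in mare 1 at -0.094 on day 8, with the nearest at -1.11.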

How the results depend on the processing

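Of the 73 called genes that the naming rule selected, out of 134 called named genes, 27 kept their call and direction in all settings, among them CHGA, RBP4, PLA2G4A, FST, PLIN2, CYP3A89, PTGFR, HK2 and MET. The number of called probes fell from 6598 to 3327 with only days 8 and 16 in the fit, to 3197 with slide and mare as blocks, to 3573 with a 2-fold minimum and to 3501 with 1 probe per target, which tests 20627 probes. Leaving out 1 mare or array gave 3970 to 8582, and leaving out the shared slide gave 3580. Without the replicate block, that is without pairing by mare, it was 5379, and 10 of the 73 genes lost their call. With only days 8 and 16 in the fit 27 of the 73 lost it, and with slide and mare as blocks 29. Normexp ended 35 of the 73 calls and gave 2404 probes, of which 36.1% were higher against 52.2%, moved the median of all probes to -0.41, and reversed EDNRA (-0.59), BDNF (-0.86), NR5A2 (-0.029), TNFAIP6 (-0.37), CXCL8 (-0.48), CLEC3A (-0.78), MMP3 (-0.21) and PTGES (0.11). It subtracts local backgrounds, which reached 772899 on the day 8 array of mare 2, from the median signal and adds an offset of 50. The part of each step was not tested. With the backgrounds marked by the scanner software replaced, normexp gave 5810 probes and ended 6 calls, those of EDNRA, BDNF, TNFAIP6 (0.46), CXCL8, CLEC3A and MMP3. PTGES also reversed without mare 1 (0.15) and without its day 16 array (0.10), and was -0.67 without that of mare 4. PTGS2 reversed without mare 4 (-0.018) and was 0.93 without the day 16 array of mare 2. The uncalled P19 passed in 8 settings, without mare 5 or either of its arrays among them, and did not pass in the other settings.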

Other observations

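Some called genes outside the lists, chosen after their values were seen, are given with their values. The annexins ANXA1 and ANXA2, calcium-dependent binders of membranes, changed by 1.21 ± 0.18 (adjusted p = 0.000135) and 0.62 ± 0.18 (adjusted p = 0.0222), the former in all 5 mares and the latter in 4. S100A6, a calcium sensor, rose by 1.05 ± 0.22 (adjusted p = 0.00275) without overlap of the days. KIR3DL, a receptor of NK cells, rose by 1.62 ± 0.33 (adjusted p = 0.00197) in all 5 mares, and CD40, a costimulatory receptor, by 1.05 ± 0.23 (adjusted p = 0.0035). The mast cell tryptase TPSB2 fell by 1.36 ± 0.34 in all 5 mares (adjusted p = 0.00811), and IL5, which sustains eosinophils, by 0.81 ± 0.16 (adjusted p = 0.00166). LMNA, lamin A, rose by 1.03 ± 0.25 (adjusted p = 0.00669). DDIT4, a stress-induced inhibitor of growth signalling, fell by 0.88 ± 0.21 (adjusted p = 0.00605). Of these 9 genes ANXA1 and S100A6 kept their calls in all 28 other settings. ANXA2 lost its call in 14 (adjusted p 0.0527 to 0.222), including without any mare but mare 1, and TPSB2 in 5 (0.0516 to 0.309), including without mare 2 or 4. DDIT4 lost it in 4 (0.0507 to 0.566), including without mare 5. KIR3DL lost it in 2 (0.302 to 0.821), with normexp and with marked backgrounds replaced. CD40 (0.0839 to 0.284) and IL5 (0.0554 to 0.0609) lost it in 2 each, with normexp and with only days 8 and 16 in the fit. LMNA lost it in 1, with only these days (0.0520).

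Around MET, CFTR and CTTNBP2 in RefSeq order, TES at 0.81, CAV1 at 0.63 and ST7 at 1.03 were called higher, while CAV2 at 0.27, CAPZA2 at 0.06, WNT2 at -0.04 and ASZ1 at 0.54 did not pass. CAV1 lost its call in 19 of 28 other settings (adjusted p 0.0507 to 0.30), including without any 1 mare, and ST7 in 1, with normexp (0.205). Of these 10 neighbours CTTNBP2 alone was called lower.

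Most calls have no symbol here: 6300 of the 6598 called probes. Among those named by an Ensembl transcript, ENSECAT00000019537 changed by -8.50 ± 0.54 (adjusted p = 2.57e-08) and ENSECAT00000002160 by -8.43 ± 0.59, with 3 of 3 probes called. ENSECAT00000015557 rose by 6.41 ± 0.66 with 4 of 4 probes called, and ENSECAT00000016990 by 5.91 ± 1.22. Their genes were not identified here.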
